A study of Mus musculus with 12 samples.

Results

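The chemokine ligands and receptors of the mouse were followed in cells isolated from liver and measured on Affymetrix expression arrays. A member was any probe set, the unit of measurement on these arrays, that the platform annotation pairs with a single gene symbol beginning with Ccl or Ccr and a digit, with Cxcl, Cxcr, Cx3c, Xcl, Xcr or Ackr, or reading Ccrl2. This naming rule used no measured value and found 72 of 22626 probe sets, which stand for 54 of 12393 genes. They comprised 32 ligands and 22 receptors. Where a member had more than 1 probe set (15 genes), the probe set of highest average level was taken. Another 4 probe sets name a Ccl19, Ccl21 or Ccl27 gene together with near-identical copies and were not used, and the probe set of Ccl27a may take up signal from such copies.

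Chemokines are small proteins that direct the movement of leukocytes by binding G protein-coupled receptors on the migrating cell. Most are secreted and held on heparan sulfate, whereas Cxcl16 and Cx3cl1 are made as transmembrane proteins and can also act as adhesion molecules. Atypical receptors (the Ackr genes) bind ligands without coupling to G proteins and clear or transport them. In liver, chemokines position resident macrophages (Kupffer cells), natural killer T cells and recruited monocytes and neutrophils along the sinusoids.

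The cells came from male C57BL/6N mice aged 12 weeks. Some drank plain tap water (vehicle mice) and others received 50 mg/kg phenobarbital daily through their drinking water for 14 days (phenobarbital mice), and from each kind 3 arrays of hepatocytes and 3 of mesenchymal cells were made, 12 arrays in 4 groups. Phenobarbital, an anticonvulsant, turns on drug metabolism in hepatocytes through the receptor CAR, and no group carries a genetic change in the labels. The labels do not state the number of animals per array, and p-values here cover only the variation among these samples, which may be technical. All levels are on the log2 scale of RMA, on which a difference of 1 is a 2-fold change, and levels of different genes are not compared.

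The marker genes show what the populations contained. All 10 hepatocyte markers were higher in hepatocytes, with a mean level of 14.11 to 14.20 there and of 9.87 to 11.63 in mesenchymal arrays. The mesenchymal arrays were higher in 9 of 9 tested Kupffer cell markers (mean level 13.53 to 14.05, against 5.86 to 6.50 in hepatocytes), in 9 of 9 of sinusoidal endothelium, in 5 of 5 of dendritic cells, in 6 of 8 of T and natural killer cells and in 6 of 7 of stellate cells and fibroblasts. So were 3 of 3 tested monocyte markers (5 measured) and 3 of 3 of neutrophils (6 measured). Of all genes tested, 42% were higher in mesenchymal cells of vehicle mice. The filter on low values, described below, gave the direction of any marker above its percentile in no hepatocyte array. In hepatocytes of vehicle mice no array exceeded it for 4 of 9 measured Kupffer cell, 4 of 9 endothelial and 2 of 5 dendritic cell markers. The same held for 7 of 10 of T and natural killer cells, 7 of 10 of stellate cells, 4 of 5 of monocytes and 5 of 6 of neutrophils. The fraction labelled mesenchymal thus carried macrophage, other myeloid, endothelial and lymphoid RNA beside that of stellate cells. It also held RNA of the hepatocyte markers, most in replicate 1 of phenobarbital mice. The part of such RNA in the mesenchymal levels of members that were higher in hepatocytes was not tested. In such bulk samples fewer cells of a type and less RNA per cell cannot be told apart.

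Both vehicle samples numbered 1 stood apart. The clock-controlled gene Dbp, chosen after its values were seen, lay at 6.21 and 6.52 in these arrays and between 11.60 and 12.15 in the other 10. The same arrays had the highest Nfkbiz of their population, at 8.63 in hepatocytes and 10.58 in mesenchymal cells, and the mesenchymal one had the highest mean of the NF-kB inducer list, 9.34 against 8.71 to 9.08. Among mesenchymal arrays, replicate 2 of phenobarbital mice had the highest mean of 6 neutrophil markers, 9.07 against 6.44 to 7.74.

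In vehicle mice, 21 of the 33 tested chemokine and receptor genes were called higher in mesenchymal cells than in hepatocytes, Ccl6, Cxcr6, Ccl24, Cxcl13 and Cxcl16 among them. Hepatocytes held more of 8 others, which included Ccl9, Cxcl1 and Ccl27a. A gene was tested when its level exceeded each array's own 40th percentile in 3 or more of the 12 arrays, which 33 of the 54 members did, and it was called at an adjusted p under 0.05 in limma's test over all genes. The remaining 4 (Ccl2, Ccl8, Ccr7 and Cx3cl1) were not called. The populations differed in 82.7% of all 9031 genes tested, 42% higher and 40.7% lower, so a call by itself sets no member apart.

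The filter shaped these counts. Of the 33 tested members, 11 exceeded the percentile in no hepatocyte array and 5 in no mesenchymal array, so the direction of their difference was given by the filter. Among the 8 members above it in all 12 arrays, 4 were called higher and 3 lower. For the 6489 genes of that kind the shares were 40.7% and 38.7%. The other 21 members were not tested. Of these, 16 exceeded the percentile in no array, Ccl12, Ccl17, Cx3cr1 and Cxcl2 did so in 1 array, and Ccl25 in 2. The percentile lay between 6.54 and 6.60 in hepatocyte arrays and between 6.64 and 6.68 in mesenchymal arrays, so a level under about that value is read here as not above background.

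**Figure D1:**
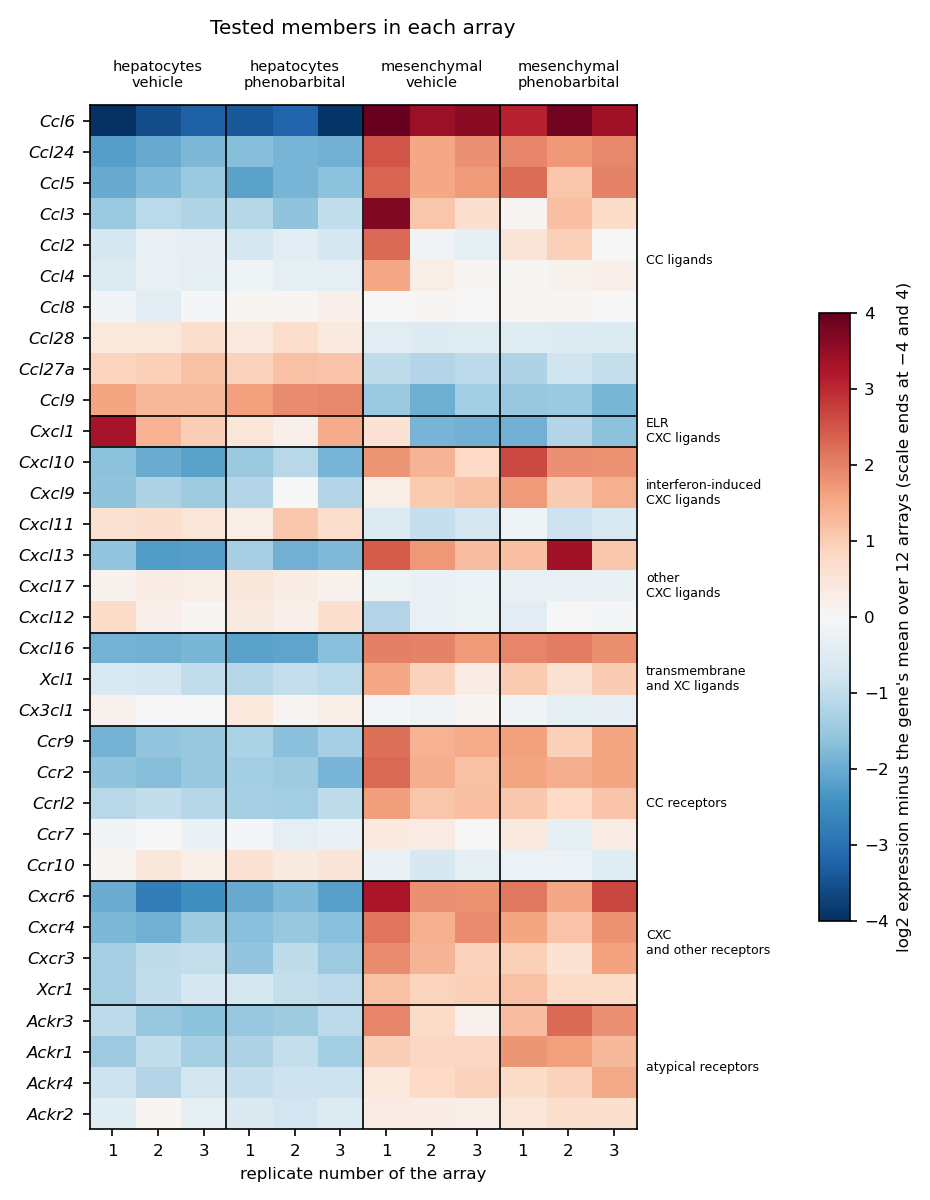
Levels of the 33 tested chemokine and receptor genes in each of the 12 arrays. Each row is a gene, grouped by role, each column an array with its replicate number, and the colour is the log2 level minus that gene's mean over the 12 arrays, from blue (low) to red (high), with the scale ending at -4 and 4. Most rows are red in the 6 mesenchymal columns, Ccl9, Cxcl1 and Ccl27a are red in the hepatocyte columns, and mesenchymal vehicle replicate 1 has the deepest red in Ccl3, Ccl2 and Cxcr6.

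Among the 18 CC ligands, 10 were tested, 5 of them called higher in mesenchymal cells and 3 lower. Of all genes tested, 42% were called higher and 40.7% lower, so these counts do not set the CC ligands apart. Ccl6, a ligand of Ccr1 made by macrophages and other myeloid cells, read 4.73, 5.29 and 5.59 in hepatocytes of vehicle mice and 12.95, 12.26 and 12.46 in mesenchymal cells. All mesenchymal arrays were far above all hepatocyte arrays, where Ccl6 was not above background. The difference was 7.35 (SE 0.28, n = 3 per group; adjusted p = 5.66e-10 in limma), taken against a background level. A further probe set gave 6.04, and no fold is given since the hepatocyte level is only a bound.

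Ccl9, a close relative of Ccl6 that also acts through Ccr1, went the other way. It read 11.39, 11.15 and 11.11 in hepatocytes of vehicle mice, 11.45, 11.70 and 11.73 in those of phenobarbital mice, 8.34, 7.88 and 8.45 in mesenchymal cells from vehicle mice and 8.31, 8.32 and 8.0 in those of phenobarbital mice. Every hepatocyte array lay above every mesenchymal array. In vehicle mice hepatocytes were 7.95-fold higher (log2 difference -2.99, SE 0.15; adjusted p = 6.08e-09 in limma), and a further probe set gave -3.23. In the RefSeq annotation of GRCm38.p6, the genes Ccl5, Ccl9, Ccl6, Ccl3 and Ccl4 neighbour each other in this order, with vehicle differences of 3.62, -2.99, 7.35, 3.09 and 1.02. Ccl9 was the only one of the 5 higher in hepatocytes. Ccr1, a receptor of Ccl3, Ccl5, Ccl6 and Ccl9, exceeded the percentile in no array.

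Ccl24, an eosinophil attractant that binds Ccr3 and is made by alternatively activated macrophages, read 6.72, 6.91 and 7.13 in hepatocytes and 11.45, 10.46 and 10.76 in mesenchymal cells of vehicle mice. The groups did not overlap, and mesenchymal cells were 15.7-fold higher (log2 difference 3.97, SE 0.21; adjusted p = 6.33e-09 in limma). Its receptor Ccr3 was not above background, with group means from 4.43 to 6.19.

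Ccl5, which T and natural killer cells release, read 6.16, 6.41 and 6.69 in hepatocytes and 10.52, 9.72 and 9.87 in mesenchymal cells of vehicle mice. All mesenchymal arrays were above all hepatocyte arrays, by 3.62 on average (SE 0.29; adjusted p = 2.74e-07 in limma). T and natural killer markers moved with it, with a mean level of 7.67 to 8.52 in mesenchymal arrays and 5.89 to 6.12 in hepatocytes, and their part in this difference was not tested.

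The epithelial ligands Ccl27a and Ccl28, which share the receptor Ccr10, were higher in hepatocytes. Ccl27a, best known from skin keratinocytes, read 7.71, 7.75 and 7.98 in hepatocytes and 5.78, 5.65 and 5.77 in mesenchymal cells of vehicle mice. No mesenchymal array exceeded the percentile, and the difference was -2.08 (SE 0.13; adjusted p = 2.62e-08 in limma). Ccl28, a ligand of mucosal epithelia, read 6.57, 6.59 and 6.84 against 5.71, 5.64 and 5.66, a difference of -1.0 (SE 0.11; adjusted p = 5.88e-06 in limma). These hepatocyte levels sat at the percentile itself, and a further probe set of Ccl28 was not above background in either population, at 3.76 and 3.72. Ccr10 was likewise near the percentile in hepatocytes, at 6.36, 6.73 and 6.53 in vehicle mice, and below it in mesenchymal cells, at 6.01, 5.63 and 5.91. Its difference was -0.69 (SE 0.14; adjusted p = 0.000606 in limma).

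The monocyte and macrophage attractants Ccl2, Ccl3, Ccl4, Ccl7 and Ccl12 were uneven among the mesenchymal arrays. Ccl3, released by activated macrophages, read 10.31, 7.70 and 7.28 in mesenchymal cells of vehicle mice and 6.71, 7.80 and 7.33 in those of phenobarbital mice, while hepatocytes ran from 4.99 to 5.61. Its vehicle difference, taken against a background level in hepatocytes, was 3.09 (SE 0.62; adjusted p = 0.00064 in limma), and 2.15 without mesenchymal vehicle replicate 1. Ccl2, the main monocyte attractant and a ligand of Ccr2, read 8.57, 6.14 and 5.89 in mesenchymal cells of vehicle mice and 6.79, 7.24 and 6.28 in those of phenobarbital mice. Apart from the first of these arrays and 2 of the phenobarbital arrays, Ccl2 was not above background, and its vehicle difference of 1.03 (SE 0.55) was not called (adjusted p = 0.104 in limma). It was called without mesenchymal vehicle replicate 3, at 1.52 (adjusted p = 0.0258). Ccl4, a neighbour and relative of Ccl3, read 8.81, 7.52 and 7.31 in mesenchymal cells of vehicle mice, and its difference of 1.02 (SE 0.30) was called (adjusted p = 0.00724 in limma). Without the first of these arrays it was 0.56 (adjusted p = 0.00117 in limma). Ccl7 and Ccl12 were highest in the same array, at 6.58 and 7.02, and lay between 5.12 and 6.57 in the other mesenchymal arrays.

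The plot of inflammatory ligands shows how much of this spread came from 1 array. Of the 28 members tested in the 6 mesenchymal arrays, 14 were highest in vehicle replicate 1, against 27.2% of all genes tested. Without that array Ccl2 and Ackr3 no longer met the filter and the count called higher was 20.

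The neutrophil attractants with an ELR motif act through Cxcr2, and Cxcl1 was the only one of the 4 that was tested. Cxcl1 read 12.33, 10.41 and 10.02 in hepatocytes of vehicle mice, 9.52, 9.23 and 10.50 in those of phenobarbital mice, 9.61, 7.17 and 7.11 in mesenchymal cells from vehicle mice and 7.11, 7.86 and 7.39 in those of phenobarbital mice. Vehicle replicate 1 was the highest array of each population. Hepatocytes of vehicle mice were 7.74-fold higher (log2 difference -2.95, SE 0.71; adjusted p = 0.00229 in limma). The difference was -2.25 without hepatocyte vehicle replicate 1 and -3.78 without mesenchymal vehicle replicate 1.

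Cxcl2, its neighbour on the chromosome, was not above background in hepatocytes (4.61 to 5.10). In mesenchymal cells it read 9.89, 5.96 and 5.85 in vehicle mice and 5.70, 6.62 and 6.23 in phenobarbital mice, so that only the first of these 6 arrays exceeded the percentile. Cxcl5, Cxcl15 and the receptor Cxcr2 were not above background in any array. Neutrophil markers in mesenchymal vehicle replicate 1 averaged 7.74, and their part in these levels was not tested.

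The promoters of 4 CXC ligands on chromosome 5 are shown because Cxcl1 and Cxcl2 were both highest in a vehicle sample numbered 1, and Cxcl9 and Cxcl10 come next in the results. They are RefSeq sequences of GRCm38.p6, the 250 bases before the gene's start, at chr5:90890995-90891244 and chr5:90903649-90903898 on the plus strand and chr5:92328080-92328329 and chr5:92348890-92349139 on the minus strand, written 5′ to 3′ along the gene. Capitals mark matches to a form of the NF-kB site (GGGAA, then any 1 base, then TTCC) and to a form of the interferon-stimulated response element (GAAA, then any 2 bases, then GAAA), both searched on both strands.
Cxcl1: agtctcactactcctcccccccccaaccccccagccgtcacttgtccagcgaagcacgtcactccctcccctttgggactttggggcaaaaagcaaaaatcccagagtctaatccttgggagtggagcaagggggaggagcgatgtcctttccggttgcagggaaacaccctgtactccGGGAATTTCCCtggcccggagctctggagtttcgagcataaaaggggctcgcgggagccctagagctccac
Cxcl2: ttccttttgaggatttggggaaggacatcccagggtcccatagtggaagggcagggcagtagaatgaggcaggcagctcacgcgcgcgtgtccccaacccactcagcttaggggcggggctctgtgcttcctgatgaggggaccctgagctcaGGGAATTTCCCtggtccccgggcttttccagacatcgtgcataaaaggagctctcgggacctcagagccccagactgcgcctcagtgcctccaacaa
Cxcl9: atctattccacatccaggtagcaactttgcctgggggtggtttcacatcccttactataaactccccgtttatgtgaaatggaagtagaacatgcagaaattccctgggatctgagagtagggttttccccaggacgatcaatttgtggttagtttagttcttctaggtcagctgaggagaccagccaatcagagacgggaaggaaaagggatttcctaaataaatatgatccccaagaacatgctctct
Cxcl10: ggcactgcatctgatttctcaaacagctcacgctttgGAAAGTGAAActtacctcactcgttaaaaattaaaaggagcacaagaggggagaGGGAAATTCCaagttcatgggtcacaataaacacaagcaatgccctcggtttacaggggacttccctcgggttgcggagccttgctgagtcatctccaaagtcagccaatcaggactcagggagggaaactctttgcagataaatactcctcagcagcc
Cxcl1 and Cxcl2 share 1 run of 11 capitals, GGGAATTTCCC, which holds 2 overlapping matches to the NF-kB pattern and ends 60 and 86 bases before the start. Cxcl10 holds 1 match to each pattern, 149 and 203 bases before the start, and Cxcl9 holds neither in this window. The NF-kB pattern was found in 93 of 32851 mouse promoters (0.283%) and in 5 of the 47 promoters of members, those of Ccl1, Ccr3, Cxcl1, Cxcl10 and Cxcl2. The interferon pattern was found in 978 promoters (2.98%), 2 of them of members (Cxcl10 and Cxcl14). A match describes the letters only.

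**Figure D2:**
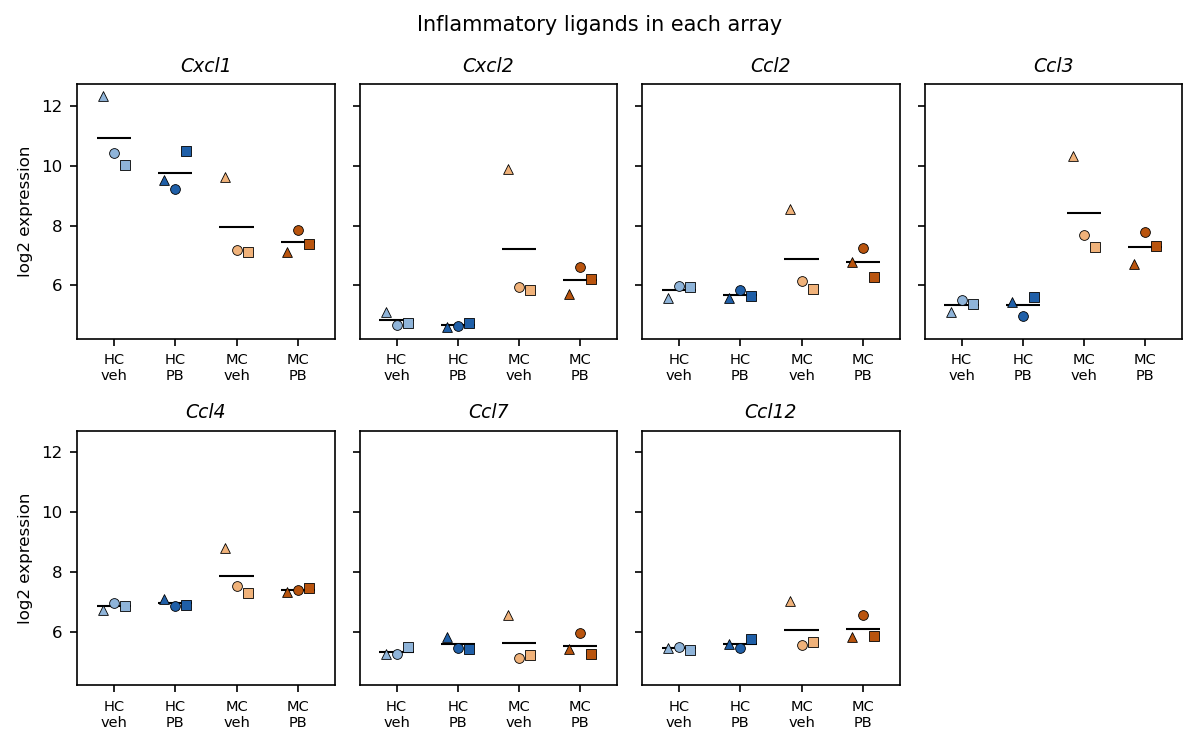
Log2 levels of 7 inflammatory ligands in each array, on a shared vertical axis. HC and MC are hepatocytes and mesenchymal cells, veh and PB are vehicle and phenobarbital mice, triangles, circles and squares are replicates 1, 2 and 3, and black lines are group means. The triangle of mesenchymal vehicle mice stands above all other mesenchymal points for every gene shown, and for Cxcl1 the triangle of hepatocyte vehicle mice, at 12.33, is the highest point.

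Cxcl9, Cxcl10 and Cxcl11 are induced by interferons and attract T and natural killer cells through Cxcr3. Cxcl10 read 6.49, 6.14 and 5.99 in hepatocytes of vehicle mice, 6.66, 7.01 and 6.27 in those of phenobarbital mice, 9.88, 9.50 and 8.94 in mesenchymal cells from vehicle mice and 10.78, 9.95 and 9.94 in those of phenobarbital mice. Every mesenchymal array was above every hepatocyte array, with a vehicle difference of 3.23 (SE 0.29; adjusted p = 7.14e-07 in limma). No hepatocyte array of vehicle mice exceeded the percentile, so this difference is against a background level. Cxcl9 read 8.39, 8.78 and 8.58 in hepatocytes and 10.26, 11.07 and 11.18 in mesenchymal cells of vehicle mice, and was 4.77-fold higher in the latter (log2 difference 2.25, SE 0.33; adjusted p = 5.49e-05 in limma).

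Cxcl11 had the opposite sign, reading 6.51, 6.54 and 6.38 in hepatocytes and 5.34, 4.96 and 5.18 in mesenchymal cells of vehicle mice. Its difference was -1.31 (SE 0.21; adjusted p = 0.000116 in limma). Since 3 of 6 hepatocyte arrays were above the percentile and a further probe set was at 4.18 in hepatocytes, this is a difference at the edge of background. Cxcl11 no longer met the filter without hepatocyte vehicle replicate 2 or either of phenobarbital replicates 2 and 3. Cxcr3, the receptor of all 3 ligands, was higher in mesenchymal cells, with means of 9.10 ± 0.47 against 6.60 ± 0.21 in hepatocytes of vehicle mice (SD, n = 3; adjusted p = 5.80e-06 in limma).

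The other CXC ligands were split between the populations. Cxcl13, which attracts B cells through Cxcr5, read 7.21, 6.54 and 6.59 in hepatocytes and 11.22, 10.52 and 10.02 in mesenchymal cells of vehicle mice. The groups did not overlap, with a difference of 3.81 (SE 0.52; adjusted p = 3.09e-05 in limma), and a further probe set gave 6.48. Among mesenchymal cells of phenobarbital mice Cxcl13 read 10, 12.13 and 9.85, high in the array that was also highest in neutrophil markers. Cxcr5 was not above background in any array.

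Cxcl12, the homeostatic ligand that stromal cells make for Cxcr4 and Ackr3, lay above the percentile in all 12 arrays. It read 10.93, 10.39 and 10.28 in hepatocytes of vehicle mice, 10.54, 10.39 and 10.82 in those of phenobarbital mice, 9.02, 9.88 and 10 in mesenchymal cells from vehicle mice and 9.74, 10.18 and 10.13 in those of phenobarbital mice. Vehicle replicate 1 was the highest hepatocyte array and the lowest mesenchymal one. The vehicle difference of -0.90 (SE 0.25; adjusted p = 0.00605 in limma) was -0.40 with both of these arrays left out (adjusted p = 0.05), when the call was lost. A further probe set gave -1.80 over all arrays. Cxcl17, a mucosal ligand, read 6.85, 6.99 and 6.97 in hepatocytes and 6.49, 6.42 and 6.45 in mesenchymal cells, where no array exceeded the percentile, with a difference of -0.48 (SE 0.09; adjusted p = 0.000438 in limma). Cxcl14 was not above background.

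Of the 3 transmembrane and XC ligands, 2 were called higher in mesenchymal cells (42% of all genes tested were). Cxcl16 is the ligand of Cxcr6 and is shown on macrophages and sinusoidal endothelium, where it holds natural killer T cells. It read 7.54, 7.53 and 7.62 in hepatocytes of vehicle mice, 7.31, 7.33 and 7.77 in those of phenobarbital mice, 11.45, 11.44 and 11.13 in mesenchymal cells from vehicle mice and 11.39, 11.48 and 11.31 in those of phenobarbital mice. With vehicle, mesenchymal cells were 13.7-fold higher (log2 difference 3.78, SE 0.13; adjusted p = 2.76e-10 in limma), and a further probe set gave 4.84.

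Xcl1, a product of natural killer and T cells, had means of 6.46 ± 0.20 in hepatocytes and 8.12 ± 0.62 in mesenchymal cells of vehicle mice (SD, n = 3), a difference of 1.67 (adjusted p = 7.03e-05 in limma). Cx3cl1, the ligand of Cx3cr1, had means of 7.25 ± 0.11 and 7.16 ± 0.12 and was not called in vehicle mice (difference -0.09; adjusted p = 0.442 in limma). Centring the arrays on their medians moved the median of all genes from 0.02 to -0.196 and gave Cx3cl1 a difference of -0.31, which was called (adjusted p = 0.0204). Cx3cr1 lay close to the percentile throughout, with group means from 6.27 to 6.62.

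Of the 18 receptors other than the Ackr genes, Ccrl2 included, 9 were tested. Among these, 7 were called higher in mesenchymal cells (42% of all genes tested were) and 1, Ccr10, lower. For 5 of the 7 (Ccr2, Ccr9, Cxcr4, Cxcr6 and Xcr1) no hepatocyte array exceeded the percentile, so the filter gave their direction and each difference is against a background level. Cxcr6, carried by natural killer T cells and other resident lymphocytes, read 4.76, 3.97 and 4.29 in hepatocytes and 10, 8.59 and 8.54 in mesenchymal cells of vehicle mice. It was not above background in hepatocytes, and the difference was 4.70 (SE 0.39; adjusted p = 3.57e-07 in limma). A further probe set gave 3.98.

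Cxcr4, the Cxcl12 receptor of leukocytes and endothelium, read 4.29, 4.18 and 4.68 in hepatocytes and 8.23, 7.51 and 7.97 in mesenchymal cells of vehicle mice. No hepatocyte array was above background, and the difference was 3.53 (SE 0.21; adjusted p = 2.10e-08 in limma). Xcr1, the Xcl1 receptor of cross-presenting dendritic cells, had means of 4.91 ± 0.34 and 6.91 ± 0.14 (SD, n = 3), a difference of 2.00 (adjusted p = 9.24e-07 in limma).

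Ccr9, the receptor of Ccl25 on gut-homing T cells and plasmacytoid dendritic cells, read 4.88, 5.21 and 5.27 in hepatocytes and 8.99, 8.17 and 8.26 in mesenchymal cells of vehicle mice. The difference was 3.35 (SE 0.24; adjusted p = 1.08e-07 in limma), and 2 further probe sets gave 2.24 and 2.16. Ccl25 itself was not tested, with means of 6.58 in hepatocytes and 5.52 in mesenchymal cells. Ccr2, the receptor by which monocytes leave the marrow and enter tissue, read 4.94, 4.85 and 5.04 in hepatocytes and 8.81, 8.0 and 7.71 in mesenchymal cells. Its difference was 3.23 (SE 0.24; adjusted p = 1.18e-07 in limma). Further probe sets of Ccr2 gave 3.1 and 0.9, the latter not tested, and with all its probe sets averaged the difference was 2.41. Monocyte markers averaged 8.46 to 10.01 in mesenchymal arrays and 5.61 to 5.95 in hepatocytes, and their part in this difference was not tested.

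Ccrl2, a chemerin-binding relative of the CC receptors, was higher in mesenchymal cells by 2.41 (SE 0.16; adjusted p = 4.57e-08 in limma). Ccr7, the lymph node homing receptor, differed by 0.37 (SE 0.19) and was not called (adjusted p = 0.0845 in limma). It was called at the same difference in limma with treatment and replicate number together as a block (adjusted p = 0.0316). The same held without mesenchymal phenobarbital replicate 2 (adjusted p = 0.0193 in limma). The remaining receptors, Ccr1, Ccr1l1, Ccr3, Ccr4, Ccr6, Ccr8, Cxcr2 and Cxcr5, exceeded the percentile in no array.

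All 4 atypical receptors were called higher in mesenchymal cells of vehicle mice (42% of all genes tested were), by 0.56 to 2.37. For Ackr3 and Ackr4 no hepatocyte array exceeded the percentile, so the filter gave their direction and each difference is against a background level. Ackr1 is a venous endothelial and red cell receptor that binds many inflammatory ligands, and its difference was 2.12 (SE 0.15; adjusted p = 1.22e-07 in limma). Ackr2, a scavenger of inflammatory CC ligands, differed by 0.56 (SE 0.14; adjusted p = 0.00284 in limma), and by 2.26 in a further probe set. Ackr3, which takes up Cxcl12, differed by 2.37 (SE 0.40; adjusted p = 0.000175 in limma), but exceeded the percentile in only 3 mesenchymal arrays. Of these, 1 was of vehicle mice and 2 of phenobarbital mice. Its mesenchymal mean in vehicle mice, 5.81, was itself not above background. Ackr4, a scavenger of homeostatic CC ligands, differed by 1.62 (SE 0.20; adjusted p = 1.09e-05 in limma).

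**Figure D3:**
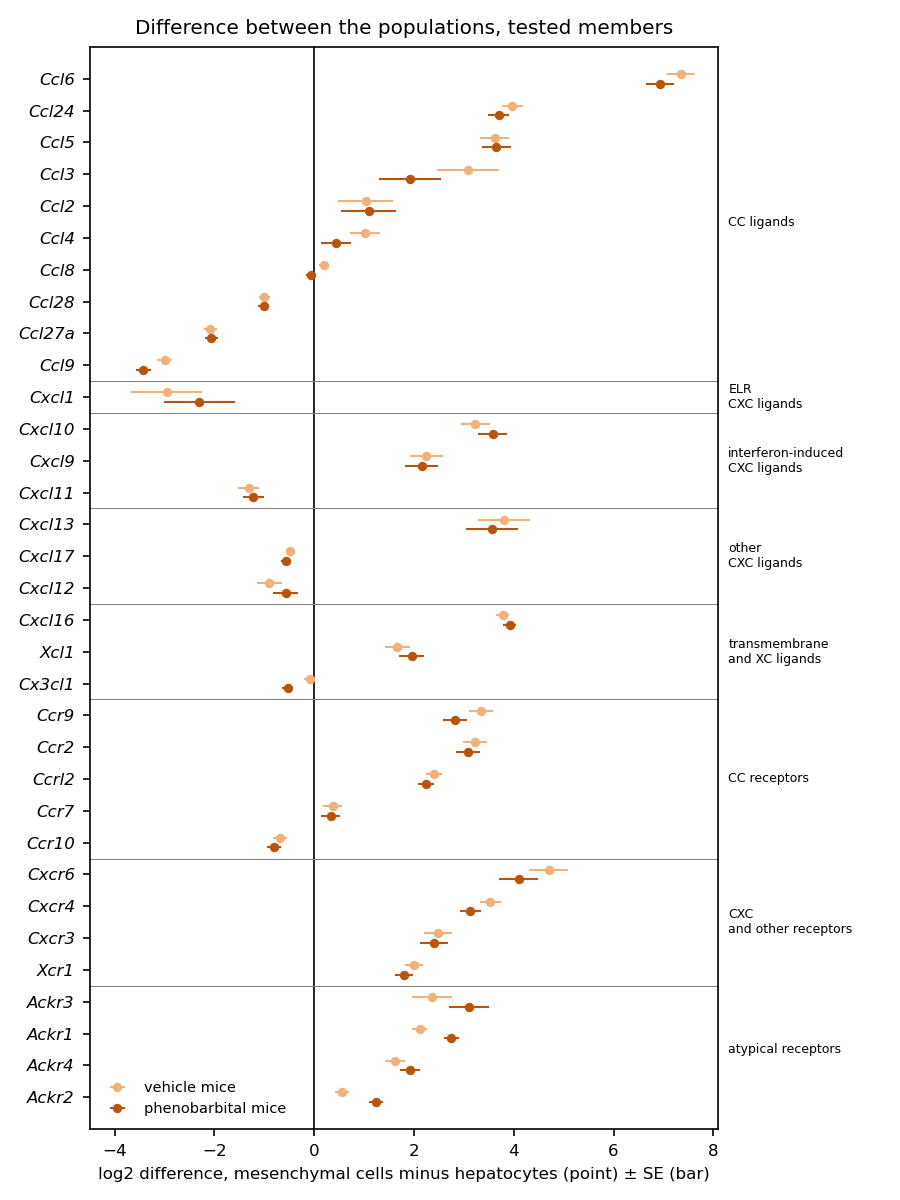
Log2 difference between mesenchymal cells and hepatocytes for the 33 tested members, in vehicle mice (light points) and phenobarbital mice (dark points). Points are limma estimates from 12 arrays, bars are 1 SE, and values right of the vertical line at 0 are higher in mesenchymal cells. Ccl6 lies farthest to the right, at 7.35 and 6.93, and Ccl9 farthest to the left, at -2.99 and -3.42.

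In phenobarbital mice, measured on 6 other arrays, 20 of the 33 tested members were called higher in mesenchymal cells and 8 lower, and 5 were not called. Of all genes tested, 42.2% were called higher and 40.9% lower (83.1% in all). The filter bears on these counts as it does in vehicle mice. Ccl6 differed by 6.93, Cxcr6 by 4.10, Cxcl16 by 3.92, Ccl9 by -3.42 and Cxcl1 by -2.30. The calls of 3 members were not those of vehicle mice. Ccl4 differed by 0.44 (adjusted p = 0.188 in limma) and Cxcl12 by -0.57 (adjusted p = 0.0565 in limma), and neither was called. On the 6 arrays of phenobarbital mice alone both were called at the same differences (adjusted p = 0.00555 for Ccl4 and 0.0101 for Cxcl12 in limma), as they were in the larger fit without mesenchymal vehicle replicate 1 (adjusted p = 0.00258 and 0.0133). Cxcl12 was also called without hepatocyte vehicle replicate 1 (adjusted p = 0.0436 in limma) or mesenchymal vehicle replicate 3 (adjusted p = 0.0476). It was called with median-centred arrays at -0.80 (adjusted p = 0.0107 in limma), with quantile-normalized columns at -0.61 (adjusted p = 0.0454) and with both probe sets averaged at -0.93 (adjusted p = 0.00479). Its further probe set gave -1.30 (adjusted p = 0.000634 in limma). Cx3cl1 was called lower in mesenchymal cells (-0.53, adjusted p = 0.000851 in limma). The comparison of effects tests these differences between treatments, and it called no member. It called no gene at all among 9031, not even the widest difference of effects, 4.51 (smallest adjusted p = 0.108 in limma). With so few arrays it cannot decide whether the smaller differences of these 3 members are real.

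**Figure D4:**
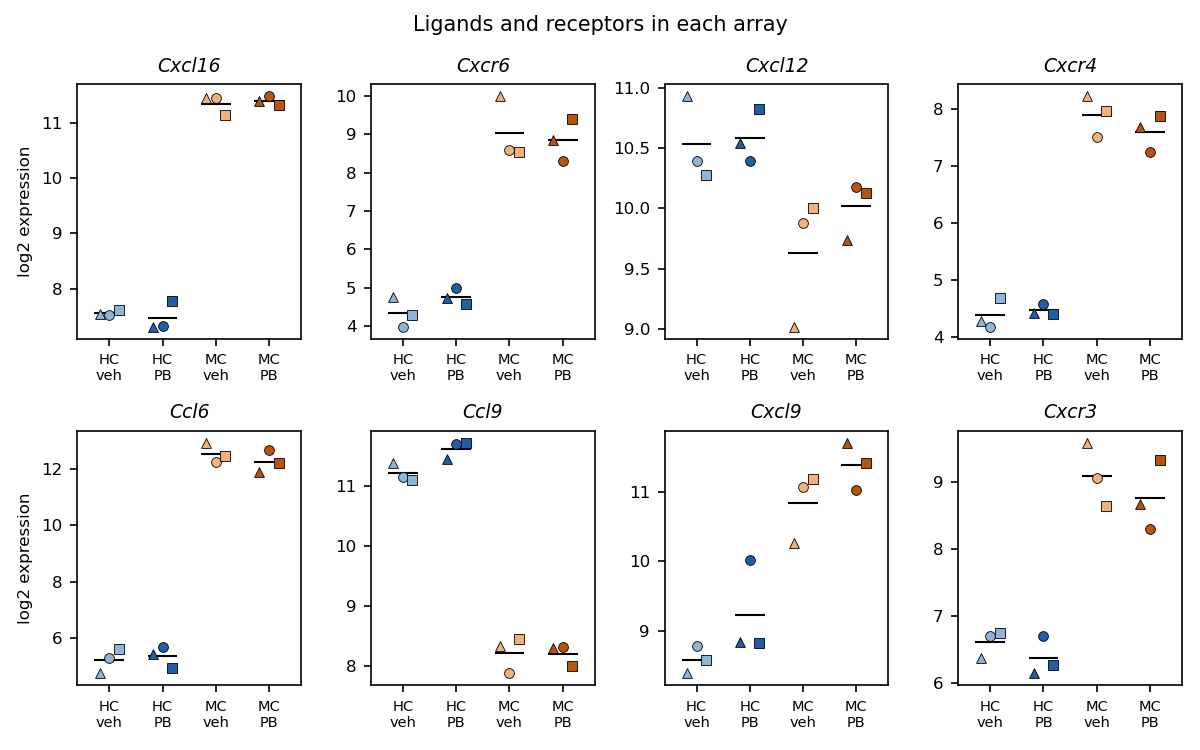
Log2 levels of 4 ligands and receptors of matching pairs (Cxcl16 and Cxcr6, Cxcl12 and Cxcr4), of Ccl6 and Ccl9, and of Cxcl9 and its receptor Cxcr3 in each array, with a vertical axis of its own for each gene. HC and MC are hepatocytes and mesenchymal cells, veh and PB are vehicle and phenobarbital mice, triangles, circles and squares are replicates 1, 2 and 3, and black lines are group means. Cxcl16, Cxcr6, Cxcr4, Ccl6 and Cxcr3 are high in all 6 mesenchymal arrays, and Ccl9 is high in all 6 hepatocyte arrays.

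The effect of phenobarbital was then tested separately in hepatocytes and mesenchymal cells, with 6 arrays each. In hepatocytes no chemokine or receptor gene was called. There 18 members were tested, 0 of them passed in limma (0.0493% of all 8117 genes did), and 1 had an unadjusted p under 0.05 (8.38% of all genes). The groups did not overlap in 3 members, all higher with phenobarbital (15.1% of all genes did not overlap, 6.92% with phenobarbital higher). The median difference was 0.08, against 0.00 for all genes. These were Ccl9, Ccl8 and Cxcl9, the 3 members with the smallest p.

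Ccl9 read 11.39, 11.15 and 11.11 in vehicle and 11.45, 11.70 and 11.73 in phenobarbital hepatocytes. Its lowest treated array was 0.06 above its highest vehicle array. The difference was 0.41 (SE 0.11; adjusted p = 0.433 in limma), with 0.36 to 0.50 when single arrays were left out, and 0.40 in a further probe set. Ccl8, a monocyte attractant, read 6.58, 6.26 and 6.63 in vehicle and 6.77, 6.75 and 6.88 in phenobarbital hepatocytes, just above the percentile. Its difference between the populations of vehicle mice, 0.20, was called without hepatocyte vehicle replicate 3 (0.27, adjusted p = 0.0427 in limma) and was -0.01 with median-centred arrays. In phenobarbital mice that difference was -0.06, and -0.29 with median-centred arrays, when it was called (adjusted p = 0.019 in limma). The phenobarbital difference was 0.31 (SE 0.13; adjusted p = 0.593 in limma).

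Cxcl9 read 8.39, 8.78 and 8.58 in vehicle and 8.84, 10.02 and 8.83 in phenobarbital hepatocytes. The second treated array was high, and the other 2 were within 0.06 of the highest vehicle array. The difference was 0.65 (SE 0.31; adjusted p = 0.624 in limma) and 0.25 without that array. The same array was also highest in the interferon inducer list, with a mean of 8.11 against 7.11 to 7.50 in the other hepatocyte arrays, and the part of this in the Cxcl9 level was not tested. Cxcl10 was highest there as well, at 7.01. Cxcl1 had the widest difference, -1.17 (SE 0.59; adjusted p = 0.635 in limma), and -0.47 without hepatocyte vehicle replicate 1.

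In mesenchymal cells no chemokine or receptor gene was called either. There 28 members were tested and 0 passed in limma (0% of all 8003 genes), while 3 had an unadjusted p under 0.05 (2.9% of all genes). The same 3, Ackr1, Ackr2 and Cxcl10, were the members whose groups did not overlap, all higher with phenobarbital (7.7% of all genes did not overlap, 4.09% with phenobarbital higher). The median difference of the members was -0.09, against 0.00 for all genes, with 10 of 28 positive. Without vehicle replicate 1 it was 0.09, with 16 of 26 positive.

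Ackr1 read 8.86, 8.71 and 8.71 in vehicle and 9.65, 9.53 and 9.17 in phenobarbital mesenchymal cells. All 3 treated arrays were above all vehicle arrays, and the difference was 0.69 (SE 0.13; adjusted p = 0.998 in limma). It ranged from 0.59 to 0.83 when single arrays were left out. In hepatocytes Ackr1 read 6.44, 6.91 and 6.57 with vehicle and 6.66, 6.92 and 6.53 with phenobarbital, with overlapping groups. Sinusoidal endothelial markers averaged 12.49 to 12.92 in vehicle and 12.73 to 12.84 in phenobarbital mesenchymal arrays. The 2 measured red cell markers averaged 5.96 to 6.06 and 6.00 to 6.29, means under the percentile. Only 1 of them was tested, and it was lower in mesenchymal cells than in hepatocytes (-4.04 in vehicle mice). These values therefore cannot show whether red cell content changed. Venous endothelium had no marker list of its own, and the part of cell content in the Ackr1 difference was not tested.

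Ackr2 read 7.29, 7.26 and 7.23 in vehicle and 7.45, 7.68 and 7.60 in phenobarbital mesenchymal cells. The groups did not overlap, with a difference of 0.32 (SE 0.09; adjusted p = 0.998 in limma). A further probe set read 7.57, 7.86 and 7.72 against 8.09, 8.1 and 7.83, with overlap and a difference of 0.29. Ackr3 read 6.81, 5.60 and 5.03 against 6.07, 7.10 and 6.68, with overlap and a difference of 0.80 (SE 0.48), which was 0.41 without vehicle replicate 3. Ackr4 read 7.28, 7.66 and 7.78 against 7.60, 7.77 and 8.36, with overlap and a difference of 0.34 (SE 0.22), which was 0.12 without phenobarbital replicate 3. None of the 4 atypical receptors was called. Their differences were positive, as were those of 4149 of all 8003 genes tested, with a median of 0.52. The median was 0.33, 0.41 and 0.30 without vehicle replicate 1, phenobarbital replicate 2 and phenobarbital replicate 3, when 3 of the 4 were tested.

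Cxcl10 read 9.88, 9.50 and 8.94 in vehicle and 10.78, 9.95 and 9.94 in phenobarbital mesenchymal cells. The lowest treated array was 0.06 above the highest vehicle array, and the difference was 0.79 (SE 0.31; adjusted p = 0.998 in limma). It was 0.51 without the first treated array. Cxcl9 had a difference of 0.55 (SE 0.28) with overlapping groups, and of 0.26 without vehicle replicate 1.

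The 8 tested receptors other than the Ackr genes, Ccrl2 included, all had a negative difference in mesenchymal cells. It ran from -0.33 to -0.08 with a median of -0.25, and none was called. This sign rested on single arrays. Without vehicle replicate 1 the differences ran from -0.16 to 0.30, with 2 of 8 positive, and without phenobarbital replicate 2 from -0.23 to 0.10, again with 2 positive. T and natural killer markers averaged 8.52 in that vehicle array and 7.67 to 8.01 in the other mesenchymal arrays, and their part in these values was not tested. Among the CC ligands Ccl3 had the widest difference, -1.15 (SE 0.79), with Ccl4 at -0.48 (SE 0.37), and both were highest in the same vehicle array. Without that array they were -0.21 and -0.02.

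**Figure D5:**
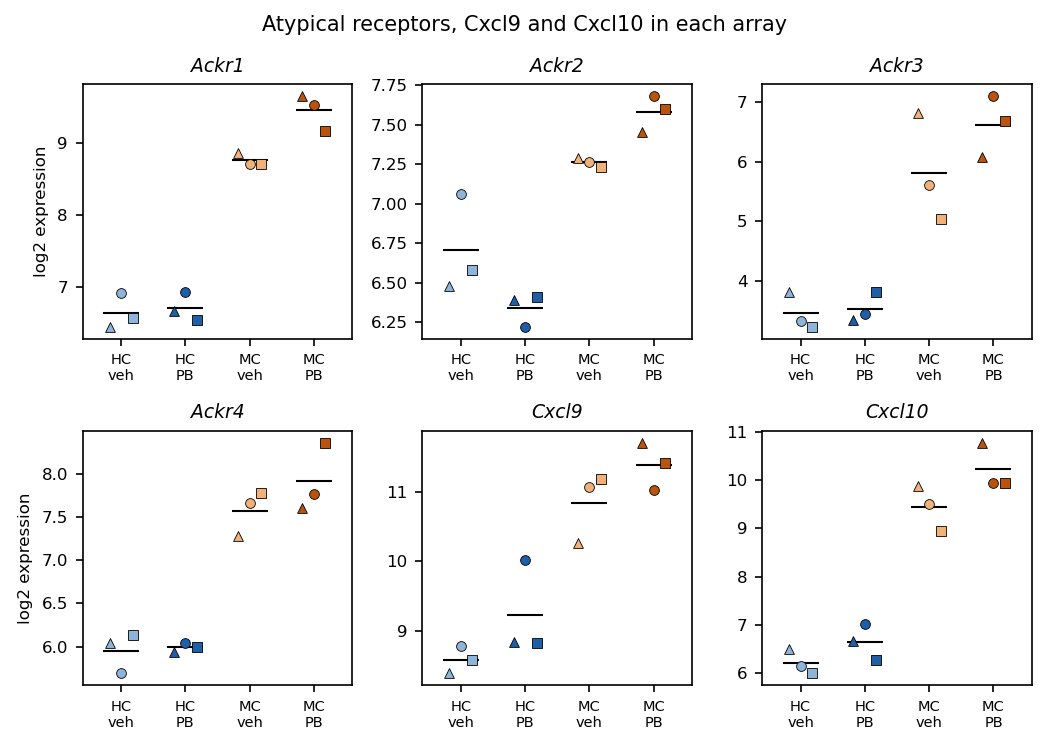
Log2 levels of the 4 atypical receptors, Cxcl9 and Cxcl10 in each array, with a vertical axis of its own for each gene. HC and MC are hepatocytes and mesenchymal cells, veh and PB are vehicle and phenobarbital mice, triangles, circles and squares are replicates 1, 2 and 3, and black lines are group means. In mesenchymal cells the phenobarbital points of Ackr1, Ackr2 and Cxcl10 lie above all vehicle points, while those of Ackr3, Ackr4 and Cxcl9 overlap with them.

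The effect of phenobarbital in hepatocytes minus that in mesenchymal cells was tested on all 12 arrays. Of the 33 tested members 0 passed in limma, as did 0% of the 9031 genes, and 3 had an unadjusted p under 0.05 (5.45% of all genes). These were Ackr2 with -0.68 (SE 0.20; adjusted p = 0.87 in limma), Ackr1 with -0.63 (SE 0.22) and Cx3cl1 with 0.44 (SE 0.16), each with the same adjusted p. For Ackr2 the hepatocyte arrays read 6.48, 7.06 and 6.58 with vehicle and 6.39, 6.22 and 6.41 with phenobarbital, mostly not above background. Cx3cl1 read 7.38, 7.18 and 7.20 with vehicle and 7.63, 7.32 and 7.46 with phenobarbital in hepatocytes, and 7.14, 7.05 and 7.28 against 7.09, 6.85 and 6.87 in mesenchymal cells. Its groups overlapped in both populations.

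Other genes of the pathway were taken from lists that leave out the members. The filter shaped their counts too, since it gave the direction of any gene above the percentile in no hepatocyte array. In hepatocytes of vehicle mice no array exceeded it for 7 of 18 measured genes of receptor signalling. The same held for 6 of 10 measured genes of desensitization (9 tested) and 4 of 10 of ligand processing (7 tested). Genes that were not tested can be among these. In the vehicle comparison, 16 of 18 tested genes of receptor signalling were higher in mesenchymal cells and 1 was lower. Among them were Fermt3, which activates integrins (7.10), Prkcb, a protein kinase C (5.61), and Rac2, a GTPase of leukocyte migration (4.88). Of 9 genes of receptor desensitization 8 were higher, including the regulators of G protein signalling Rgs2 (6.48), Rgs1 (6.11) and Rgs19 (5.24). Of 7 genes of ligand processing 5 were higher and 1 lower, with the sheddases Adam10 (2.98) and Adam17 (2.84), which release Cxcl16 and Cx3cl1 from the membrane, and Mmp14 (1.98).

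Heparan sulfate carriers and enzymes, which hold secreted ligands on cell surfaces, were divided. Of 9 tested genes 4 were higher and 5 lower in mesenchymal cells, with Sdc3 at 5.06, and Sdc1 and Sdc4 at -3.91 and -3.17. Of the chemokine-like ligands and receptors 9 of 12 were higher and 2 lower, with Cd74, a receptor of Mif, at 6.72, Cmtm3 at 6.28 and Rarres2 (chemerin, a hepatocyte product) at -4.80. The NF-kB inducer list had 10 of 12 higher and 1 lower, led by Il1b (3.89), and the interferon list had 9 of 9 higher, led by Gbp2 (4.76). In all genes tested 42% were higher and 40.7% lower. In hepatocytes of vehicle mice no array exceeded the percentile for 5 of 13 measured chemokine-like genes. The same held for 4 of 14 measured genes of the NF-kB list and 2 of 10 of the interferon list. Here too, genes that were not tested can be among these. No gene of these lists was called for phenobarbital in either population.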

How the data were processed

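Per the labels' protocols, total RNA of each sample was amplified with an Affymetrix 3′ kit for a single array. The authors deposited a table of log2 levels, 22626 probe sets by 12 arrays. The submitters' processing notes name RMA without a version. RMA scales arrays against each other, so each difference is relative to most other genes. The deposited columns still differed in distribution, and the shares of all genes depend on the scaling. With median-centred arrays 3226 genes were called higher and 4343 lower in mesenchymal cells of vehicle mice, against 3793 and 3677 in the main fit. Levels spanned 2.79 to 15.16, and the array medians 7.19 to 7.44. The small number of arrays limits the precision. No scan batch is given.

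Of the probe sets, 20380 had 1 gene symbol, 691 several and 1555 none. Linear models were fitted in R 4.3.3 with limma 3.58.1, with an intensity trend and no block, on genes above the array's 40th percentile in at least 3 arrays of the fit, with Benjamini-Hochberg adjustment over all genes tested and a call at 0.05. Named genes were any called in the phenobarbital comparisons or their difference (otherwise the 3 with the smallest p), and the 10 widest differences of each sign between the populations of vehicle mice whose groups did not overlap. Ligands and receptors completing a pair with these were named too. The members, roles and lists were chosen with earlier results of these data known. The alternatives were other filters, scalings, probe set rules and fits, a replicate block, and arrays left out. The fits were tested on simulated data.

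As a check of pairing, each sample's deviation from its group mean was correlated with that of the equally numbered sample. Between the populations the correlations in vehicle mice were 0.246, 0.233 and 0.192. The deviations within a group cancel out, and replicate 1 stood apart in both populations, so these values are not independent signs of pairing. In phenobarbital mice the correlations ran from -0.0655 to 0.0764. The labels do not state a pairing, and a block was used only as an alternative. It was the replicate number for the phenobarbital effect within a population. In the other comparisons it was treatment and replicate number together, which assumes that pairing.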

Additional observations from a re-analysis of the deposited data

Results flagged for a closer look

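For Ackr2, a scavenger of inflammatory CC chemokines, the phenobarbital and vehicle arrays did not overlap in either population, and the signs were opposite. The difference of the effects was -0.68 (SE 0.20; adjusted p = 0.87 in limma), so it did not pass. Hepatocyte levels fell within 6.22 to 7.06, around the 40th percentile of the arrays, and a further probe set of Ackr2 had overlapping hepatocyte groups with means of 5.46 and 5.67. That probe set also overlapped in mesenchymal cells, and its difference of the effects was -0.08 (SE 0.19).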

How the results depend on the processing

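Most counts depend on the filter on low values. With a 60th percentile filter only 17 members were tested. In vehicle mice 13 of them were called higher in mesenchymal cells and 4 lower (3124 and 2794 of all 6894 genes tested). In phenobarbital mice 13 and 3 were (3150 and 2726 of all genes). The members that lost a call under this filter were no longer tested. With no filter all 54 were tested, and 16 were called lower in vehicle mice and 18 in phenobarbital mice (5639 and 5895 of all 12393 genes). With the 6 arrays of the treatment alone 27 were tested and 5 called lower in vehicle mice (3435 of all 8754 genes). Another 123 values of the counts of calls, those of the phenobarbital comparisons included, stayed within 1.5 times the main count. With single arrays left out, the vehicle counts ran from 20 to 22 higher and from 6 to 8 lower, and the phenobarbital counts from 19 to 20 and from 6 to 9. In the comparisons of phenobarbital with vehicle, 0 members were called in limma under every alternative run. Among values that were not called, the vehicle difference of Ccl8 between the populations (0.20) was -0.01 with median-centred arrays. Without mesenchymal vehicle replicate 1, the phenobarbital difference of Cxcr6 in mesenchymal cells (-0.18) was 0.30 and the members' median there (-0.09) was 0.09.

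For the population comparisons the block was treatment and replicate number together, which takes equally numbered hepatocyte and mesenchymal samples of a treatment as a pair. With it, 22 members were called higher and 8 lower in vehicle mice and 21 and 8 in phenobarbital mice. Ccr7 gained a call in both (0.37, adjusted p = 0.0316 in limma, and 0.33, adjusted p = 0.0473), and no other call of a member changed with this block. With both vehicle samples numbered 1 left out, Cxcl12 lost its call at -0.40. Levels near the percentile carry little signal over background, which limits Ccl28, Ccr10, Cxcl11 and Cxcl17 in particular.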
